A study of Mus musculus with 56 samples.

Results

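Among 61420 regions enriched for the histone variant H2A.Z in mouse embryonic stem cells, 318 were on the authors' list of peaks with more H2A.Z after doxycycline, and 229 of these lay outside elements of the endogenous retrovirus family ERVK. The 229 peaks are described here. They were chosen by the authors' repeat annotation, as all higher peaks whose annotation does not name ERVK, and the other 89 higher peaks are in ERVK elements. Higher peaks made up 0.518% of the peak set and lower peaks 14.8% (9077 peaks), and 52025 peaks were on neither list. Because membership was itself decided by the doxycycline contrast, the values below describe the 229 peaks and no test was made over them. Intervals are exact 95% Clopper-Pearson intervals for shares and order-statistic intervals for medians, and they cover counting error only.

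The study used CUT&Tag, in which an antibody directs a transposase to cut and tag DNA next to the bound protein. The labels of all libraries name the RHKI(E14Tg2a) line with an HA-Rnaseh1 knock-in, which doxycycline induces. ZX-1 cells, mentioned in the series' design, appear in none of the labels. By its labels, the control group of 4 H2A.Z libraries carried the knock-in too, and received no doxycycline. The doxycycline group of 4 H2A.Z libraries was kept in 500 ng/ml doxycycline for 48 hours. Both were grown in NDiff 227 medium with LIF, 2% fetal bovine serum and the inhibitors CHIR-99021 at 3 µM and PD0325901 at 1 µM, which hold stem cells in a naive state. The other 48 of the 56 libraries, against other targets or with IgG, were not analysed here. No library labelled as lacking the knock-in was used, so doxycycline itself and the induced enzyme cannot be told apart, and induction of Rnaseh1 was not measured in the files used here. Nor do peak lists hold expression values with which the stem cell label could be checked. The files give positions and annotations, with no value per library, no fold change and no p-value, so the size of the rise at a peak and its spread over replicates are not known. Depth per library is likewise unknown. The authors' threshold is not given in the sources used here, so peaks just inside and just outside it are not shown.

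H2A.Z replaces H2A in a fraction of nucleosomes, most densely at active and poised promoters and at enhancers, and it is placed and removed by dedicated remodelling complexes. RNase H1 digests the RNA strand of RNA:DNA hybrids such as R-loops, which form where a transcript pairs with its template. ERVK elements are long terminal repeat (LTR) retroviruses that stem cells normally hold silent. The repeats left after they are set aside are mostly old ones: Lx is an ancient group of L1 LINE elements, MaLR elements are old non-autonomous LTR retroelements, and SINEs are short elements copied from small RNAs.

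Few of the 229 peaks, called members below, overlapped a RefSeq promoter window. Of 32851 such windows of GRCm38.p6, each running from 250 bases before to 50 bases after a start, 5 overlapped one of them. All 5 belong to predicted lncRNAs on the minus strand, and the authors' annotation counts all 5 peaks as intergenic and free of repeats. The 3 windows that lie wholly inside a peak are printed as RefSeq gives them on the gene's strand, 5′ to 3′, as examples of DNA at a higher peak with an annotated start. CG dinucleotides are in capitals.
Gm30779: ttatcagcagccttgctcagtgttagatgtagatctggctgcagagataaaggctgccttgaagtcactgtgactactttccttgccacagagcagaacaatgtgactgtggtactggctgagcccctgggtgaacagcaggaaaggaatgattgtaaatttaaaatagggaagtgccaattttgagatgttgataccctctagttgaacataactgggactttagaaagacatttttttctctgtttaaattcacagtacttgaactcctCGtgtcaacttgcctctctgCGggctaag
Gm46300: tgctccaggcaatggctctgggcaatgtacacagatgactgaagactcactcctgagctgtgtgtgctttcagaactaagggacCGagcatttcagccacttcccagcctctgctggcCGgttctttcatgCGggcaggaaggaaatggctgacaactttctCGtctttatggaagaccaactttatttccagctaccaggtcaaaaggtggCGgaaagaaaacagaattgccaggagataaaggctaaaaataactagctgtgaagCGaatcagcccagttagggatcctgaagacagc
Gm33255: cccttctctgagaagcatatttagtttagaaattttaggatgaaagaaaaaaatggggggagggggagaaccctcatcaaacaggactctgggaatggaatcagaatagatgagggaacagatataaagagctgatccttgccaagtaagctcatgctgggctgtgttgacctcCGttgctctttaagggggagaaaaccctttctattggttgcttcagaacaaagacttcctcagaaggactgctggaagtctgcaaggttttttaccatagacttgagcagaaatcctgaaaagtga
The Gm30779 window is chr6:26766846-26767145, within the peak chr6:26766399-26767296. The Gm46300 window is chr11:110551681-110551980, within the peak chr11:110551570-110552070, and the Gm33255 window is chr16:88381669-88381968, within the peak chr16:88381489-88382114. They hold 2, 6 and 1 CG dinucleotides and have a GC content of 43.3%, 49% and 43.3%. Over all windows the median was 7 CG dinucleotides, and 94.6% held at least 1 (CG reads the same on both strands). Windows wholly inside a lower peak had a median of 22 (n = 2976), and windows wholly inside a peak on neither list a median of 16 (n = 8188). Only 6.62% of the windows in lower peaks had as few as 6, against 18.6% of those in peaks on neither list and 47.9% of all windows. The start windows of genes assigned a member, most of them outside the peaks, had a median of 8 (n = 181). These windows were not matched for gene type, and 3 windows of predicted lncRNAs do not describe the CG content of the 229 peaks. The start windows of Gm14133 on chromosome 2 and Gm34420 on chromosome 8 were covered in part, over 279 and 111 of their 300 bases.

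By annotation class, the higher peaks outside ERVK were mostly intergenic. HOMER placed 160 of 229 in intergenic DNA (69.9%, interval 63.5 to 75.7) and 59 in introns (25.8%, 20.2 to 31.9). Among lower peaks the intergenic share was 29.4% and the intron share 27.8%, with a further 18.9% in promoters and 15.9% in exons. Peaks on neither list had no class to set beside these. By RefSeq gene bounds, 29.7% of members were centred in a protein-coding gene, against 39.1% of peaks on neither list and 65.0% of lower peaks. The gap to peaks on neither list was thus smaller than the gap to lower peaks. Of the higher ERVK peaks 82.0% were intergenic and 18.0% intronic, but HOMER names repeats in these locations alone, so no ERVK peak could fall elsewhere. No member was in a 5′ UTR or at a transcript end, where a count of 0 allows a share of up to 1.31%.

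The 10 remaining members were 1 promoter peak, 4 exon peaks, 3 in a 3′ UTR and 2 in exons of non-coding RNAs. Of the 10, 4 were at olfactory receptor genes, which code for odorant receptors and sit in large gene clusters. The single promoter peak was 0.576 kb upstream of the start of Olfr874 (chr9:37745239-37745882). The exon peaks at Olfr1043 (chr2:86162234-86162734), Olfr1126 (chr2:87457404-87457904) and Olfr820 (chr10:130017620-130018247) lay 463, 487 and 570 bp from the assigned start, the 3 shortest distances among the 229. The fourth exon peak was in exon 3 of Syt4 (chr18:31441376-31441876), a synaptotagmin of secretory vesicles. The 3′ UTR peaks were in Pvalb (chr15:78190911-78191539), the calcium buffer parvalbumin, in Slc16a7 (chr10:125219921-125220421), a monocarboxylate transporter, and in Abca5 (chr11:110271430-110271930), an ABC transporter. The last was assigned to Abca6 by nearest start. The non-coding exons belonged to 4932412D23Rik and Gm10732.

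These olfactory peaks were exceptions in their surroundings. Olfr1043 had 55 protein-coding genes within 500 kb, Olfr1126 had 49, Olfr820 had 41 and Olfr874 had 31, where the median over the 229 was 3. One other member exceeded these counts, an intergenic peak 6.18 kb upstream of Krtap19-9b, a keratin-associated protein gene, with 57. In all, 10 members had 20 or more, and the other 5 were at Pvalb, Zfp53, Lpcat4, Frmd5 and Prr27.

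Distance to the nearest transcription start had a median of 92.8 kb (interval 72.2 to 120) over the 229, with quartiles at 28.6 and 262 kb. Lower peaks had a median of 5.57 kb and higher ERVK peaks of 143 kb. Upstream and downstream positions were about equally frequent, at 119 and 110. More than 100 kb separated 110 of them from the nearest start (48.0%, interval 41.4 to 54.7), against 9.57% of lower peaks and 66.3% of higher ERVK peaks. The farthest were 1308 kb upstream of Got2, a mitochondrial aspartate aminotransferase, 931 kb downstream of the start of Adgrl2, a latrophilin, and 867 kb upstream of G6pd2, a glucose-6-phosphate dehydrogenase gene. Within 5 kb of a start there were 13. Besides the 4 olfactory receptor genes these were Adgrg7 (1.79 kb), Gm8541 (2.15 kb) and D030045P18Rik (4.30 kb) on the downstream side. On the upstream side were Mroh2b (3.61 kb), Mgat4c (3.65 kb), Nbdy (3.81 kb), Trp63 (4.06 kb), Prr27 (4.21 kb) and Ptprc (4.74 kb). Of these, Trp63 codes for p63, a transcription factor of epithelia, and Ptprc for CD45, a phosphatase of blood cells. The Trp63 peak (chr16:25797530-25798174) lies in an intron of that gene, upstream of the start to which it was assigned. Likewise the Mgat4c peak lies in an intron of Mgat4c.

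**Figure D1:**
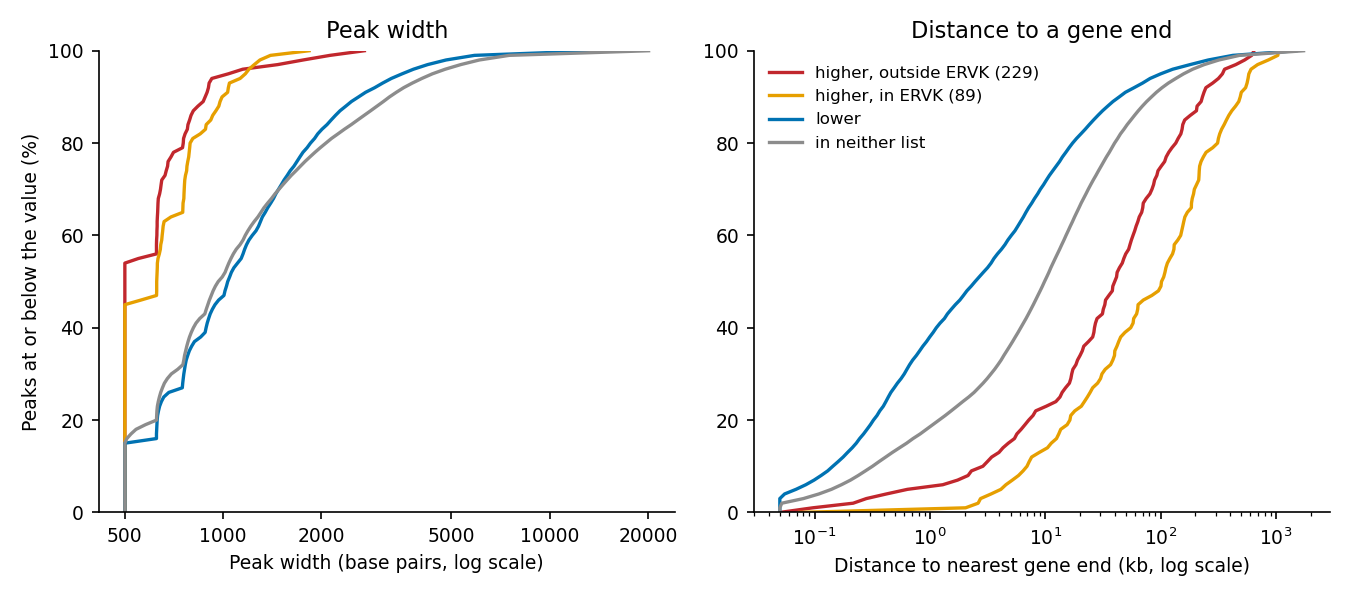
Cumulative share of peaks (percent) by width (base pairs, left) and by distance to the nearest bound (start or end) of a coding or lncRNA gene (kb, right), both on log axes, with the shortest distances drawn at the left edge. Of the 229 members (red) 55.0% are at the minimum width of 501 bp, and on the right their curve, with a median of 40.0 kb, lies between those of higher ERVK peaks (102 kb) and peaks on neither list (9.85 kb).

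The 59 intron members sat in long genes. Their hosts, as named in the authors' transcript annotation, had a median length of 273 kb (interval 206 to 382), against 46.2 kb for the hosts of lower intron peaks. Hosts longer than 1000 kb held 12 of the 59 (20.3%), and 1.11% of lower intron peaks. Several of these hosts code for neuronal adhesion proteins. Ptprd, a receptor phosphatase that organises synapses, spans 2271 kb and held 2. Macrod2, which removes ADP-ribose from proteins, spans 1998 kb and held 3. Cntn4, a contactin of axons, spans 1023 kb and held 3. Lingo2 (1255 kb) and Auts2 (1106 kb) held 1 each. Hosts between 500 and 1000 kb held 6 more, 1 each in Immp2l, Lrrtm4, Mgat4c, Galnt13, Arhgap15 and Edil3. The part of intron length itself in these counts was not tested.

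The gene with the nearest start was often not the gene that held the peak. For 24 of the 59 the host was another gene, as for all 3 peaks in Cntn4, which were assigned to Il5ra, the interleukin 5 receptor subunit. Likewise 1 Macrod2 peak was assigned to Flrt3, the Galnt13 peak to Kcnj3 and the Immp2l peak to Lrrn3. A first intron held 12 of the 59, among them that of Hapln1, and this count has no share of other peaks beside it. Among peaks within a protein-coding gene of any annotation class, the host's median length was 271 kb for the 68 members, 478 kb for 17 higher ERVK peaks, 34.5 kb for lower peaks and 90.8 kb for peaks on neither list. Counting each host once put the members' median at 232 kb.

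Among the 219 peaks in introns or intergenic DNA, the only places for which repeats are named, 58 were centred in a repeat (26.5%, interval 20.8 to 32.9) and 161 were not (73.5%). The same shares among 5071 lower peaks in these places outside ERVK were 29.0% and 56.9%, and a further 14.2% of the lower peaks were in CpG islands. No member was in a CpG island, which allows a share of up to 1.37%. The peak set was used here without repeat annotation, so peaks on neither list are not set beside them.

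LINE elements held 23 members, and the kinds of LINE differed from those of the lower peaks. Lx elements held 15 members (6.85%, interval 3.88 to 11.05) but 16 lower peaks (0.316%). The young L1Md subfamilies held 1 member (0.457%) but 965 lower peaks (19.0%). That single member, in an L1Md_F2 element, was 34.1 kb from Mir8099-2. Lx7 held 5 of the Lx members, near D830032E09Rik, Myf6, Il6st, Slitrk5 and 4930515L03Rik. Myf6 codes for a muscle bHLH factor and its peak lies in an intron of Ptprq. Il6st codes for gp130, the receptor subunit through which LIF signals, and its Lx7 peak lies 59.6 kb upstream of the start. Slitrk5, a synaptic adhesion protein, had its Lx7 peak 21.9 kb downstream of the start. Lx8 held the peaks near Ccdc59, Pom121l12 and Gm32455, Lx9 those near Gm31465 and Lpcat4, and Lx6 those near Cdh7 and Hmgcll1. The last 3 were in Lx (Gm29686), Lx2 (Toporsl) and Lx5 (Gm35722). Of the 15 Lx members 14 were intergenic, with a median of 157 kb to a start, and 9 were at the minimum width. L2 elements held 4 members and other L1 elements 3.

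LTR elements other than ERVK held 17 members (7.76%, interval 4.59 to 12.1) and 1.46% of the lower peaks. Of these, 9 were in MaLR elements (4.11%, against 0.828% of lower peaks), each in a different subfamily of the MLT1, MT and ORR1 kinds. ERVL and ERV1 elements held 4 each. The subfamily RMER15 recurred at 3 places, 4.74 kb upstream of Ptprc, 454 kb from Hgf and 1308 kb from Got2, and LTRIS2 at 2, near Mgat4c and in Macrod2. SINEs held 11 (5.02%, against 3.27%). Their median distance to a start was 15.6 kb (n = 11), with B3 near 1700017J07Rik and Nbdy and B3A near 4933402N22Rik and Psma1, a proteasome subunit. DNA transposons held 5 (2.28%, against 0.276%) and simple repeats 2. With counts this small, each share has a wide interval, and classes next to each other in order of share have overlapping intervals.

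**Figure D2:**
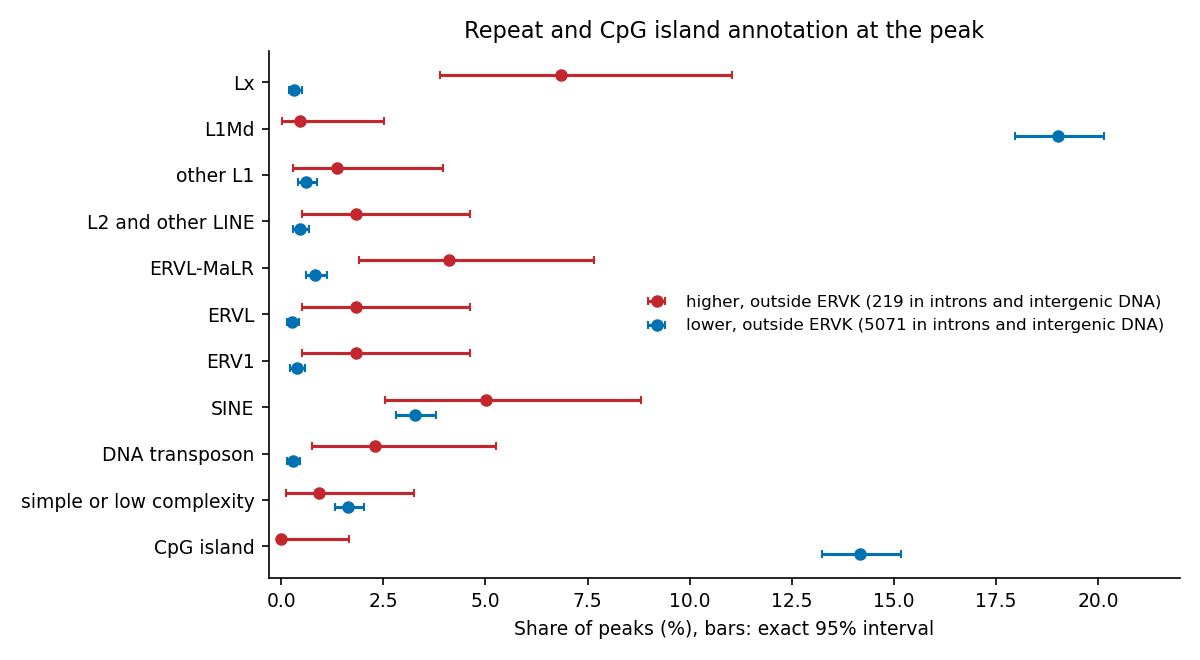
Share (percent) of peaks in introns and intergenic DNA whose centre is in each kind of repeat or in a CpG island, for 219 members (red) and 5071 lower peaks (blue), both outside ERVK. Points are shares and bars exact 95% intervals, and the widest gaps are at Lx, where the red point is higher (6.85%), and at L1Md (19.0%) and CpG islands (14.2%), where the blue points are higher.

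In width the higher peaks outside ERVK were at the narrow end of the set. Of the 229, 126 were 501 bp wide, the minimum in the set (55.0%, interval 48.3 to 61.6), against 46.1% of higher ERVK peaks, 15.4% of lower peaks and 15.4% of peaks on neither list. Medians were 501 bp for the members, 627 bp for higher ERVK peaks, 1034 bp for lower peaks and 967 bp for peaks on neither list. A further 31 were between 620 and 639 bp wide (13.5%), against 10.1% of higher ERVK peaks, 7.40% of lower peaks and 5.61% of peaks on neither list. Seen by width class, members were 1.31% of the 9590 peaks at the minimum width, 0 of the 2133 from 502 to 619 bp (up to 0.141%), 0.854% of those from 620 to 639 bp, 0.632% of those from 640 to 749 bp and 0.304% of those from 750 to 999 bp. The share was 0.0411% from 1000 to 1499 bp, 0.0703% from 1500 to 1999 bp and 0.0533% from 2000 to 2999 bp. There was none among the 6768 peaks of 3000 bp or more, which allows up to 0.0443%. The share of members was thus lower above 1000 bp than at the minimum width, without falling from class to class, and the part of width in it was not tested. The scarcity from 502 to 619 bp was not particular to members. That class held 0 higher ERVK peaks and 16 lower peaks (0.750%, against 14.6% at the minimum width). Higher ERVK peaks were 0.428% of peaks at the minimum width and 0.0657% of those from 1000 to 1499 bp, where lower peaks were 17.9%.

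Of the 229 peaks, 12 were wider than 1000 bp. The widest, 2708 bp (chr4:36390099-36392806), lies in an intron of Lingo2, a neuronal leucine-rich repeat protein, and was assigned to Mir876. The next, 2460 bp (chr6:106614163-106616622), lies in an intron of Cntn4. An intergenic peak of 2251 bp (chr4:73516717-73518967) is 87.7 kb from Gm11237, and one of 1803 bp (chr2:133278200-133280002) is 273 kb upstream of Bmp2, a ligand of the bone morphogenetic protein pathway. The fifth, 1801 bp (chr13:89583672-89585472), is in intron 1 of Hapln1, which links hyaluronan to proteoglycans. The other 7 were near Gm1322, Rasgrf2, Bank1, Zfp53, Edil3, Pla2g4a and Gm14015.

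Around the members, genes and other H2A.Z peaks were sparse. Within 500 kb of a member there was a median of 3 protein-coding genes (interval 3 to 4) and 17 peaks of the set (16 to 20). Lower peaks had medians of 16 genes and 39 peaks, peaks on neither list 9 and 33, and higher ERVK peaks 2 and 11. No protein-coding gene lay within 500 kb of 23 members (10.04%), 22.5% of higher ERVK peaks and 2.83% of peaks on neither list. At least 1 bound (start or end) of a coding or lncRNA gene was within 1 kb of 13 members (5.68%, interval 3.06 to 9.51), 38.0% of lower peaks and 18.6% of peaks on neither list. The nearest other peak of the set was a median of 14.6 kb away (interval 11.1 to 18.7), against 9.14 kb for peaks on neither list. The most isolated member, in an intron of the ephrin receptor gene Epha5, was 229 kb from any other peak, and the peak in the B cell scaffold gene Bank1 was 211 kb away.

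Peaks of the minimum width alone gave similar medians. The 126 members of this width had a median of 19 peaks and 3 protein-coding genes within 500 kb, where the 8022 peaks of that width on neither list had 31 and 8, and the 1398 lower peaks of that width had 36 and 13. The 41 higher ERVK peaks of that width had 11 peaks and 3 genes, the same gene median as the members.

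Lower peaks were rare near the members. The nearest lower peak was a median of 309 kb from a member (interval 263 to 371), 428 kb from a higher ERVK peak and 112 kb from a peak on neither list. One member had a lower peak within 10 kb (0.437%), against 2.25% of higher ERVK peaks and 7.72% of peaks on neither list. That member is near Ptger3, a prostaglandin E2 receptor gene, with the lower peak 9.14 kb away. Of the 229, 85 had none within 500 kb (37.1%), against 47.2% of higher ERVK peaks and 15.6% of peaks on neither list. Of the peaks within 500 kb of a member, 6.04% were lower. The same share was 6.58% around higher ERVK peaks and 14.6% around peaks on neither list. Exceptions were the peak in the Pvalb 3′ UTR and the one near 1700017J07Rik, each with 15 lower peaks within 500 kb. These values rest on the same contrast as the choice of the members and on a sparser neighbourhood, and they are given as a description.

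**Figure D3:**
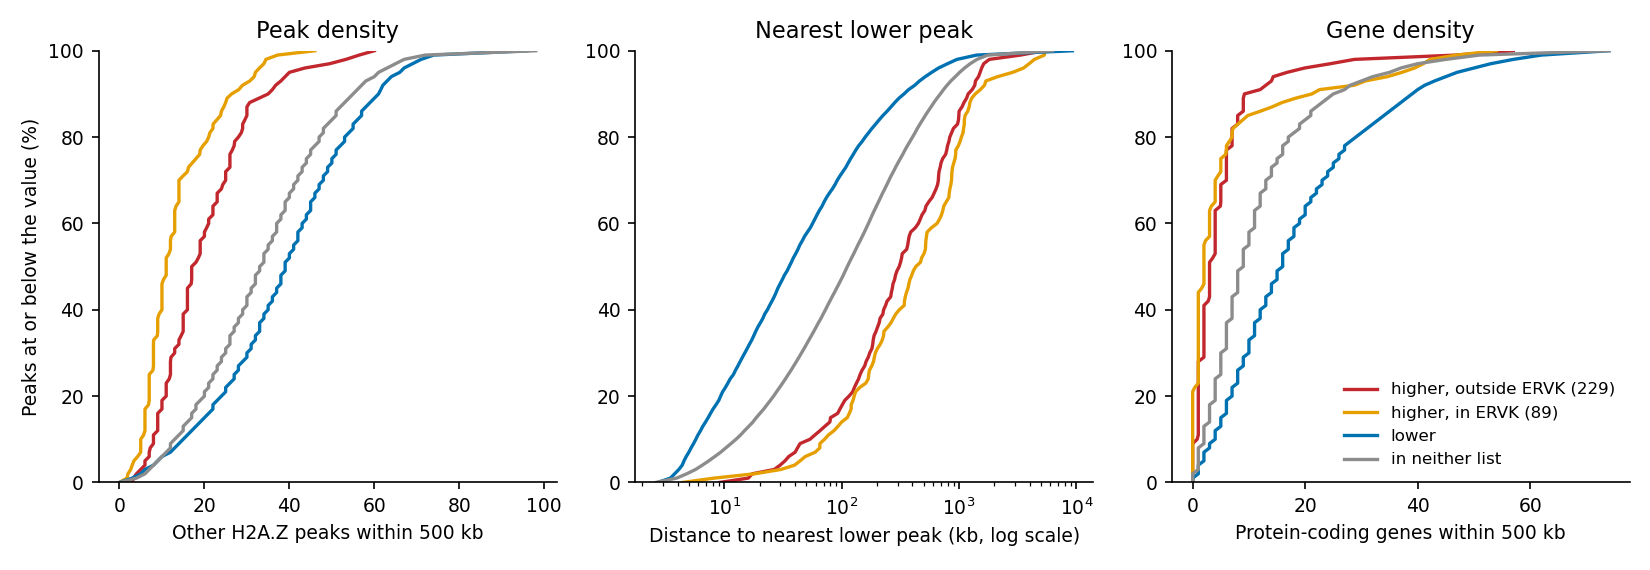
Cumulative share of peaks (percent) by the number of other H2A.Z peaks within 500 kb (left), distance to the nearest lower peak (kb, log axis, middle) and number of protein-coding genes within 500 kb (right). In the middle and right panels the members (red) follow the higher ERVK peaks (yellow) more closely than the peaks on neither list (grey), and on the left their median of 17 lies between 11 and 33.

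Along the chromosomes, many members stood near another higher peak. Another higher peak lay within 1 Mb of 111 members (48.5%, interval 41.8 to 55.1) and of 15.5% of the peaks on neither list. Counting members alone, 91 had another within 1 Mb (39.7%). A member was that near to 34.8% of higher ERVK peaks and 12.4% of peaks on neither list. Within 100 kb, 25 members had another member, a count with no share of the other sets beside it. Linking higher peaks no more than 1 Mb apart left 118 members alone, put 65 into pairs and put 46 into 19 groups of 3 to 6. Of these groups, 9 were made of members only and 10 held ERVK peaks as well. In 13 of the 19 no lower peak lay between the first and the last higher peak. Some of these groups held few or no other peaks, and 14.8% of the whole set was lower. Stretches with as many peaks were not counted in this way, so the 13 have no share beside them.

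The tightest group was in Cntn4. Its 3 members spanned 36.6 kb (chr6:106610492-106647085), and the peak set held no other peak between them. The Hgf group, downstream of the start of hepatocyte growth factor, had members at 286, 414 and 454 kb and spanned 169 kb with 6 other peaks, none of them lower. Toporsl and C630028M04Rik shared a group of 3 over 499 kb, Mir181a-1 and Ptprc one over 546 kb, and 4930598F16Rik and 4930533P14Rik one over 760 kb. Each of these 3 groups held 7 other peaks, all on neither list. Around Btg1, an antiproliferative gene, and Nudt4, 3 members lay among 66 other peaks over 1199 kb, again with none lower. The largest group of members alone had 4, at Ism1, Macrod2 (2) and Flrt3, over 1564 kb with 1 lower peak of 38 in all. Lower peaks were more frequent in the group of Il6st and Esm1, at 5 of 42. The group of Ccdc59, 4930532I03Rik and Myf6 held 2 of 24.

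The largest group with ERVK peaks had 6 higher peaks over 2300 kb (chr13:88136904-90436474). Its members were in Edil3, Hapln1 and Vcan, and its ERVK peaks were near Edil3 and Tmem167. All 3 member genes code for extracellular matrix proteins, and Hapln1 and versican, the product of Vcan, are neighbours that bind hyaluronan together. The other 38 peaks of that stretch were on neither list. In the other 9 mixed groups the members were near Slitrk5, Robo1 (2), Adcyap1 (2), Olfr1043, Gm11237 and Rasef, Ptprd (2), G6pd2 (2), Cftr, and Plekha5 and Gm10400.

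**Figure D4:**
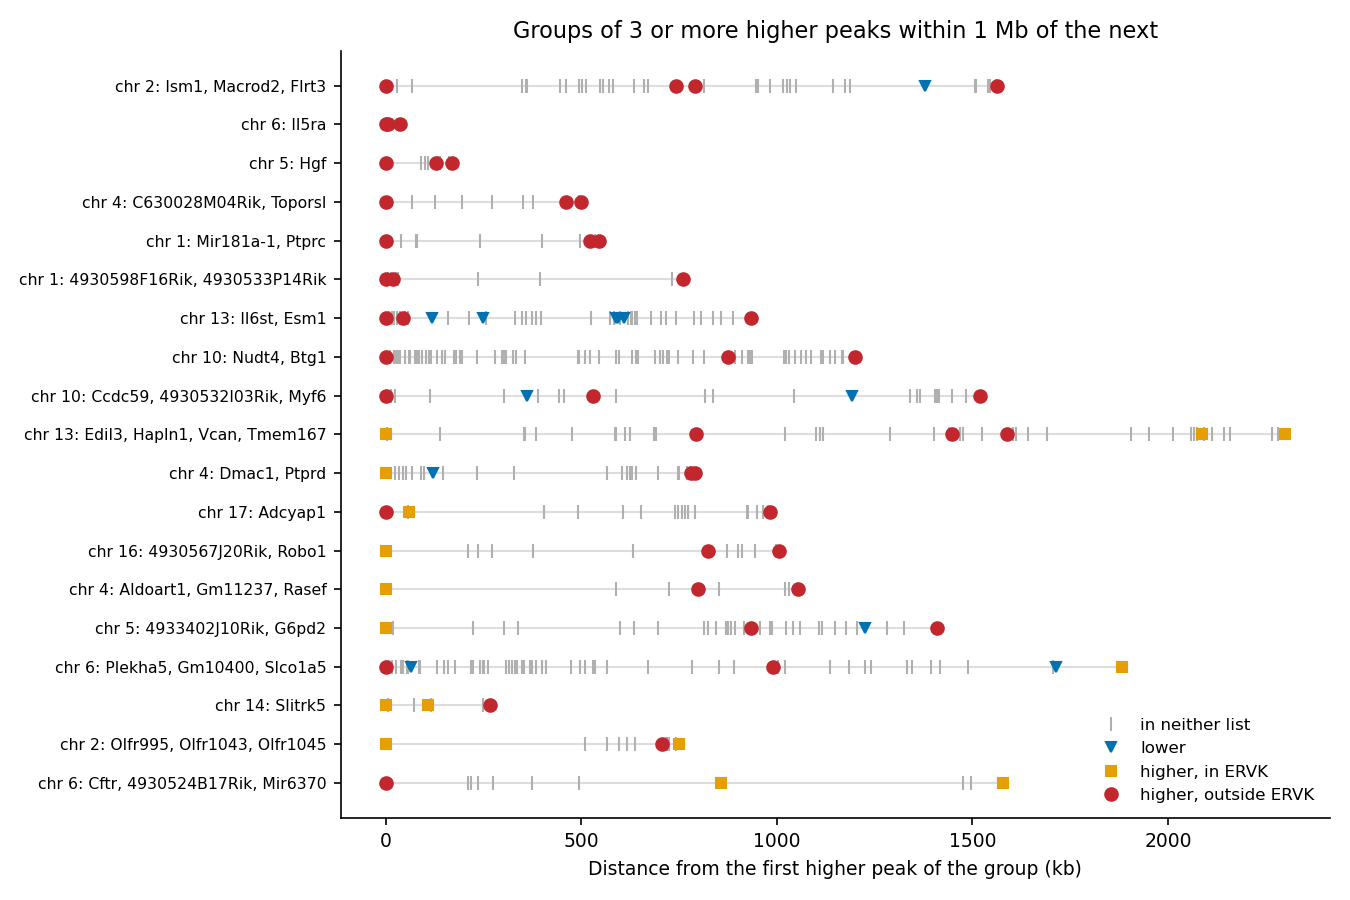
The 19 groups of 3 or more higher peaks, 1 row each, drawn from the first higher peak of the group (distance in kb). Red circles are members, yellow squares higher ERVK peaks, blue triangles lower peaks and grey ticks peaks on neither list. In 13 rows there is no blue triangle, and some of these rows hold few other peaks.

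By chromosome, there were 3.73 members per 1000 peaks (interval 3.26 to 4.24). Chromosome 2 had the most, 29 of 4793 peaks or 6.05 per 1000 (4.06 to 8.68). They include the Macrod2 group, the Pde1a pair and the peaks at Olfr1043 and Olfr1126. Chromosome 19 had 1 member, near Gm815, or 0.574 per 1000 (0.0145 to 3.19), and chromosome 11 had 5, or 1.27 per 1000 (0.411 to 2.95). Chromosomes 1, 13, 16 and 10 followed chromosome 2, at 5.50, 5.30, 5.29 and 5.05 per 1000, and the intervals of these 5 overlap. Chromosome 11 had the highest density of peaks, 33.3 per Mb, and 21.2% of its peaks were lower, where chromosome 1 had 22.7 per Mb and 10.8%. The share of members did not follow peak density from chromosome to chromosome. Chromosomes 2 and 10 had 26.8 and 28.0 peaks per Mb, and chromosome 12, with 22.6 per Mb, had 2.27 members per 1000 peaks. The share of members tended to be smaller where more peaks were lower, a relation that was not tested. The limits in the next sentences were set after the values were seen. Intervals on either side of them overlap, as for chromosomes 3 (2.91 to 7.75) and X (1.10 to 7.86). Every chromosome with 11.6% lower peaks or less had at least 4.91 members per 1000, among them chromosome 10 with 11.1% lower. Every chromosome with 17.4% lower peaks or more had at most 3.37. In between there was no such order. Chromosome 2 had 16.02% lower and the most members, while chromosome 12 had 12.5% lower and chromosome 9 had 15.03% lower with 2.15 members per 1000.

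**Figure D5:**
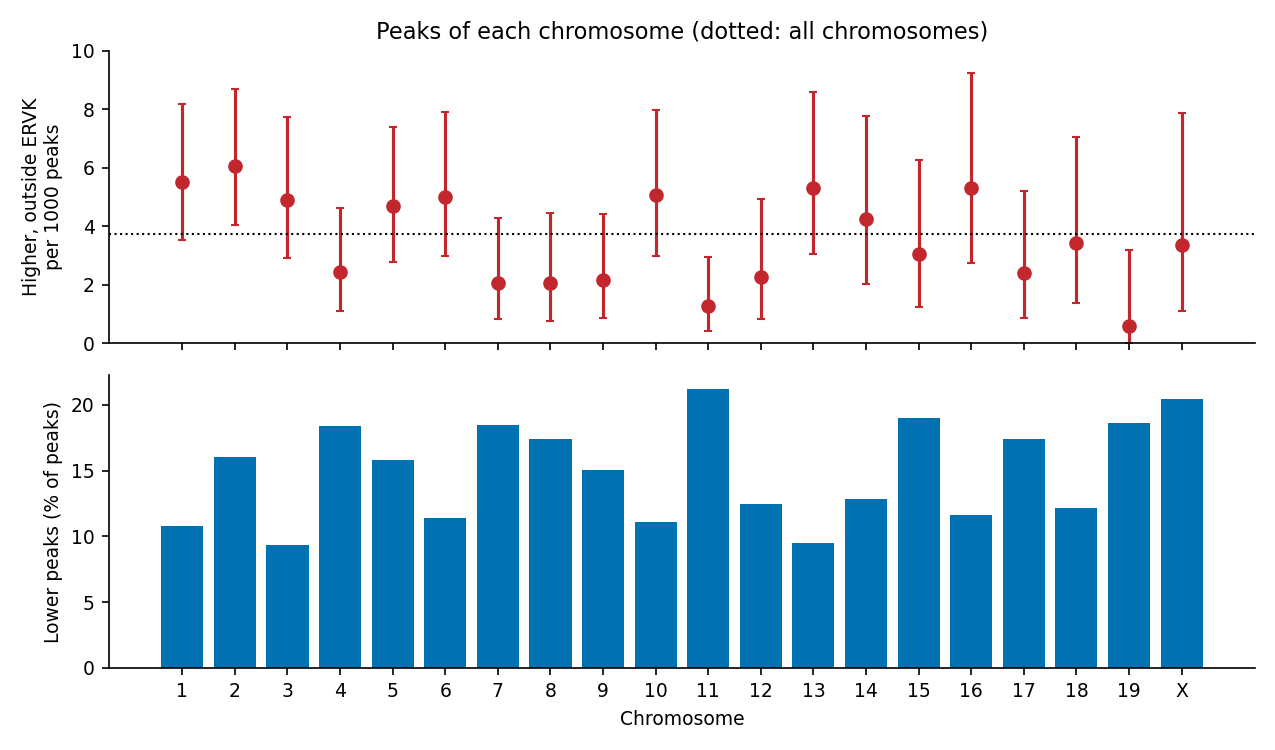
Members per 1000 H2A.Z peaks of each chromosome (top, points with exact 95% intervals, dotted line at 3.73 for all chromosomes) and share of peaks that were lower (bottom, percent). Chromosome 2 is highest above (6.05) and chromosome 19 lowest (0.574), and chromosome Y, with 8 peaks and no member, is left out.

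The 228 members with a gene symbol were assigned by nearest start to 204 genes. Protein-coding genes took 168 of them, non-coding genes 53 and pseudogenes 7. More than 1 member was assigned to 22 genes, with 3 each at Hgf and Il5ra. Several of the 20 genes with 2 have known roles in signalling or at synapses. Robo1 is a receptor for the guidance cue Slit, Ptprd organises synapses, Syt1 is the calcium sensor of transmitter release, Pde1a degrades cyclic nucleotides and Adcyap1 codes for the neuropeptide PACAP. Others were Il6st, Ptprc, Btg1, Macrod2, Got2, the flippase gene Atp10a, and Fbxo15, an F-box gene transcribed in embryonic stem cells. Both Fbxo15 peaks lay far from its start, at 559 and 682 kb. The remaining genes with 2 were Toporsl, Nwd2, G6pd2, Arhgap15os, Mir691, Gm36536, 4930598F16Rik and 4933402N22Rik. Of the 204 genes, 65 were also assigned a lower peak (31.9%, interval 25.5 to 38.7), and these were 0.972% of the 6690 genes with a lower peak. Among the genes assigned a higher ERVK peak that share was 35.3% (25.2 to 46.4), and it was 13.4% among all 49943 RefSeq genes. Of the 204, 14 were also assigned a higher ERVK peak, which is 6.86% of the member genes and 16.5% of the ERVK genes, where 0.170% of all genes had one. The shares over all genes count every gene, whether or not any H2A.Z peak was assigned to it. They are therefore not a like base for genes chosen by an assigned peak, and a share over genes with any peak was not computed.

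By gene family, synaptic adhesion and axon guidance genes took 12 members (5.24%, interval 2.74 to 8.97), 1.16% of the lower peaks and 5.62% of the higher ERVK peaks. They were Robo1 (2), Ptprd (2), Slitrk5, Epha5, Cntn5, Flrt2, Flrt3, Lrrtm4, Efna5 and Adgrl2, of which Robo1 had the closest peak, 5.53 kb upstream. With each member given instead to the protein-coding gene whose start or end was nearest, this count was 22 (9.61%). The other sets were not counted in that way, so the 22 has no share beside it. Peaks on neither list were not assigned to gene families, so the family shares are not set beside the whole peak set. Signalling ligands and receptors also took 12, at Hgf (3), Il5ra (3), Il6st (2), Adcyap1 (2), Bmp2 and Bmpr1b. Such genes took 1.48% of the lower and 3.37% of the higher ERVK peaks. By the nearest protein-coding gene, the 12 members of this family became 6. Homeobox and related factor genes took 4 (1.75%, against 2.18% of the lower peaks), of which the nearest were Esx1, a placental homeobox gene (21.5 kb), and Nkx3-2, a factor of cartilage and gut (23.3 kb). Isl1, a factor of motor neurons and heart progenitors, was 205 kb away. The 4 Zfp zinc finger genes were Zfp53 (10.1 kb), Zfp804a, Zfp407 and Zfp619 (1.75%, against 1.65%). Ion channel genes took 1.31%, against 2.20% of the lower and 4.49% of the higher ERVK peaks, and included Grik1 and Kcnj3. Solute carriers, Slc5a12, Slc4a4 and Slc16a7, took 1.31%, against 1.99%. The cadherins Pcdh9 and Cdh7 made up 0.873%, against 0.683%. Olfactory receptor genes took 1.75% of the members, 8.99% of the higher ERVK peaks and 0.771% of the lower peaks. MicroRNA genes took 11 (4.80%, against 2.68%), none closer than 34.1 kb, and unnamed gene models 52 (22.7%, against 10.8%). Among the higher ERVK peaks, microRNA genes took 3.37% and unnamed models 22.5%, so the share of unnamed models was near that of the members.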

How the data were processed

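What was measured is H2A.Z occupancy by CUT&Tag in 4 control and 4 doxycycline libraries, grouped by their labels. Per the submitters' processing notes, the data were handled with Bowtie2, Trimmomatic, deepTools, Picard and HOMER on GRCm38. Not given in the sources used here are the peak caller, the test, its threshold, the number of peaks tested and any pooling of replicates. The names of the lists were taken to mean higher or lower in doxycycline than in control. Per the file headers, the lists were annotated with HOMER annotatePeaks on mm10. The score column deposited by the authors is 0 throughout and was not used. The peak set, which contains all 318 higher and 9077 lower peaks at identical coordinates, served as background. Peaks of the set do not overlap, are at least 501 bp wide and lie at least 2001 bp apart. Starts are printed counting from 1.

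Repeats, classes and start distances are the authors' annotation. A peak's annotation refers to its centre, and repeats are named there for introns and intergenic DNA only. Distances between peaks, to genes and within windows were computed from peak centres and RefSeq gene bounds of GRCm38.p6, and sequences are those of RefSeq. Of the members, 228 had a gene ID in that table. The tools were SciPy 1.17.1, pandas 2.3.3, numpy 2.4.6 and matplotlib 3.10.9 in Python 3.11.15, and the counting code was tested on simulated data. Where a count was 0, 3 counts set its upper limit. With no value per library, no differential test could be made. The members, gene families and comparisons were chosen with earlier results of these data known. Genes were named by rule: members in promoters, exons and UTRs or within 5 kb of a start, the 5 widest, genes with 2 or more members, groups of 3 or more higher peaks within 1 Mb, Lx and L1Md members, recurring repeat subfamilies, extremes of start distance, and family members. Some genes that these rules name are not reported here. Long intron hosts, isolated peaks and gene-dense neighbourhoods were named after their values were seen. Alternatives changed windows, gene assignment, denominators and the peaks kept.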

Additional observations from a re-analysis of the deposited data

How the results depend on the processing

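No paired analysis was possible because the deposited lists hold no value per library, and for the same reason no replicate could be left out. Of 46 alternatives over 30 values, 33 moved the value by less than its counting interval (or, for counts, by less than 1.5 times), and 13 moved it further. These 13 changed a window, the gene assignment or, in 1 case, which neighbouring peaks were counted. Members near a gene start or end rose from 5.68% within 1 kb to 10.5% within 3 kb and 23.1% within 10 kb. Members with another higher peak nearby went from 48.5% within 1 Mb to 13.1% within 100 kb and 80.3% within 5 Mb, and to 39.7% with members alone counted. Peaks of the set around a member went from 17 within 500 kb to 4 within 100 kb and 35 within 1 Mb. With each member given to the nearest protein-coding gene, family counts went from 12 to 22 for synaptic adhesion and guidance, 12 to 6 for ligands and receptors, 2 to 5 for cadherins, 0 to 1 for serpins, cathepsins and prolactins, 11 to 0 for microRNAs and 52 to 15 for unnamed models. The last 2 follow from leaving non-coding genes out, and the cause of the others was not tested. Leaving out all LTR elements left 212 of the 229 peaks, and leaving out all interspersed repeats left 173. The alternatives of counting each host gene once and keeping only peaks of the minimum width were chosen after seeing the data. Depth, replicate spread and sizes of change are unknown, so no peak of the list can be ranked above another.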
